A study of Canis lupus familiaris with 42 samples.

Results

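CIRBP, RBM3, CLK1, CLK4 and SRSF5 are genes known to follow temperature, and they were examined in sarcomas of dogs sampled before and after a first heat treatment. The 5 genes were chosen by name. Of these, 4 had a probe set annotated with their symbol alone and could be measured, out of 15115 genes so measured on the array. RBM3 had none, because both of its probe sets also carry the symbol of its neighbour WDR13, so no value is given for it here. Each measured gene was represented by its probe set with the highest mean over all 42 arrays. That gave 1 of 6 probe sets for CIRBP, 1 of 2 for CLK1, 1 of 2 for CLK4 and 1 of 4 for SRSF5.

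The tumours arose spontaneously in dogs. The before group held 21 arrays of sarcoma tissue with no treatment, and the after group held 21 arrays of the same tumours after hyperthermia, given beside radiotherapy. Each tumour gave 1 array to each group, matched through the tumour code that opens each title, and tumours are numbered 1 to 21 as names only. The labels give no breed, age, tumour subtype, temperature reached, time between heating and the second sample, or whether radiation had been given by then. No untreated tumour was sampled a second time, so time, biopsy and treatment cannot be told apart. The labels do not tie tumours to individual dogs, so each p-value reflects only how these tumours vary.

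CIRBP and RBM3 encode small glycine-rich RNA-binding proteins whose transcripts rise in mildly cooled mammalian cells and fall in warmed ones. CLK1 and CLK4 encode kinases that phosphorylate SR proteins, the serine- and arginine-rich splicing factors of which SRSF5 is one. CLK activity is known to rise as temperature drops within the body's range and to fall as it climbs. The transcripts of CLK1 and CLK4 are themselves spliced in a temperature-dependent way, keeping introns in the nucleus until heat or stress releases them. An array that sums a whole probe set measures RNA amount and does not see kinase activity or a splicing switch as such.

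The values are on the log2 scale. They come from RMA, which subtracts background, makes arrays comparable and combines the probes of each probe set into 1 level. A change is the after level minus the before level. The 42 array medians lay between 5.20 and 5.31, and precision is limited by how many arrays there are. Of the markers used to check the tissue, vimentin (VIM) lay at 13.99 and the collagen COL1A1 at 13.2 before treatment, and the epithelial marker EPCAM at 3.39, below every array median. The T cell marker CD3E lay at 6.33. Levels of different probe sets are not comparable in amount, so these values are a check of the label only. The level of the poly-A spike-in controls divided the tumours into 9 with medians from 6.23 to 8.04, called the spiked batch, and 12 with medians from 3.20 to 4.36, called the unspiked batch. No label names these batches. The difference between 3′ and 5′ probe sets of the actin and GAPDH controls (the 3′ to 5′ contrast), a sign of RNA quality, changed by a mean of 0.21 ± 0.25 (SD, n = 9) in the spiked and -0.05 ± 0.24 (SD, n = 12) in the unspiked batch.

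The first comparison asked whether these genes differed between the samples taken before and after treatment. None of the 4 measured genes passed in either direction. Their mean changes ran from -0.11 for SRSF5 to 0.04 for CLK4 on the log2 scale, and the 95% intervals of the 4 genes ran from 0.823-fold at the lowest to 1.16-fold at the highest. With the tumour as a block, limma called 0 of 4 genes at 0.05 when p was adjusted by Benjamini-Hochberg across all 42924 probe sets. At an unadjusted limma p under 0.05 the count was also 0 of 4, and a sign-flip permutation test gave 0 of 4. Over all 15115 genes the same fit called 7.15%, with 4.02% higher and 3.13% lower, and 21.7% had an unadjusted p under 0.05. Over the 14 probe sets of the 4 genes the count was 0, adjusted or not, against 5.96% called of all probe sets.

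**Figure D1:**
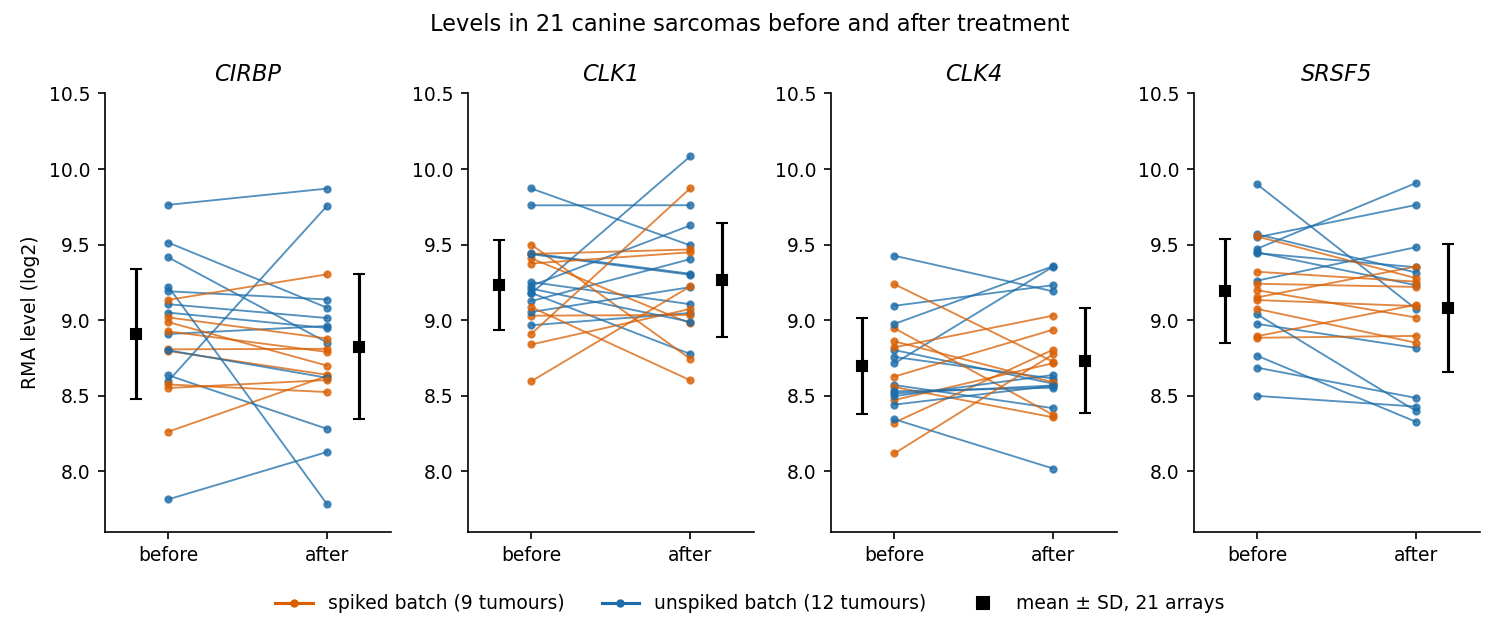
Log2 RMA level of each gene before and after treatment, with 1 line per tumour coloured by batch (poly-A control level), and the mean ± SD of the 21 arrays of each group as black squares. The groups lie over each other in every panel, and lines run both up and down.

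CIRBP, the cold-inducible RNA-binding protein, had a lowest level of 7.81, a median of 8.93 and a highest of 9.76 before treatment, and of 7.78, 8.81 and 9.87 after it. Of the 21 arrays after treatment, 19 lay inside the range before. That count, here and for the genes below, ignores the pairing and was not set against other genes. CIRBP was lower in 13 tumours and higher in 8. Its mean change was -0.08 ± 0.10 (SE, n = 21, limma adjusted p = 0.713), or 0.943-fold with a 95% interval from 0.823 to 1.08. By this probe set, the leading one of CIRBP, tumours 6 and 13 stood apart from the rest. In tumour 6 CIRBP went from 8.60 to 9.76, and in tumour 13 it went from 9.22 to 7.78. These were the tumours in which the leading probe set changed at least 2-fold, and in the remaining 19 it stayed between -0.56 and 0.37. Without tumour 13 the mean change was -0.02, and without tumour 6 it was -0.15 (limma adjusted p = 0.323). The 3′ to 5′ contrast went from 1.64 to 1.06 in tumour 13, its largest change in any tumour. In tumour 6 the contrast went from 0.82 to 0.66. Without tumours 11 and 13, whose contrast changed by more than 0.5, the mean CIRBP change was -0.01. The part of RNA quality in the fall of tumour 13 was not tested.

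The other CIRBP probe sets bore out the rise in tumour 6 more than the fall in tumour 13. In tumour 6 the probe sets ranked 2 to 5 by mean level rose by 0.84, 1.27, 1.18 and 1.33. In tumour 13 the same probe sets changed by -0.81, -0.29, 0.41 and -0.57, so the size of that fall was not shared. The probe set of rank 6 changed by 0.04 and 0.02, at levels near 3.4, below every array median. Of the 5 other CIRBP probe sets 4 had a mean change above 0, from 0.01 to 0.15, opposite in sign to the leading one. Over the 21 tumours the change of the leading probe set had r from -0.07 to 0.54 with the 5 others. In the permutation test 3 of the 5 relations passed by Pearson's r and 0 by Spearman's rho, adjusted over 10 such relations. Without tumours 6 and 13 these r ran from -0.17 to 0.33, so the leading probe set followed the others only loosely there. How closely the other CIRBP probe sets followed each other was not tested.

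CLK1, a kinase of SR proteins, lay between 8.59 and 9.87 before treatment with a median of 9.21, and between 8.60 and 10.08 after it with a median of 9.22. It was higher in 12 tumours and lower in 9, and 19 of 21 arrays after treatment fell inside the range before. The mean change was 0.03 ± 0.09 (SE, n = 21, limma adjusted p = 0.901), or 1.02-fold with a 95% interval from 0.899 to 1.16. The extremes were wide for so small a mean. CLK1 rose by 0.96 in tumour 19 and by 0.91 in tumour 6, and its lowest change was -0.76, in tumour 9. The sign of the mean turned without tumour 19 (-0.01) or tumour 6 (-0.01).

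CLK4, the closest relative of CLK1, had a lowest level of 8.12, a median of 8.63 and a highest of 9.43 before treatment, and of 8.02, 8.64 and 9.36 after it. Of the 21 arrays after treatment 20 lay inside the range before. Its mean change was 0.04 ± 0.07 (SE, n = 21, limma adjusted p = 0.854), or 1.03-fold with a 95% interval from 0.924 to 1.14, with 12 tumours higher. The lowest change, -0.57, was in tumour 9 and the highest, 0.66, in tumour 19, the same tumours as for CLK1. The second CLK4 probe set, with a mean level of 6.12, changed the other way, by -0.14 ± 0.08 (SE, n = 21, limma adjusted p = 0.353), with 13 tumours lower.

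SRSF5, an SR protein of splicing, had the lowest p of the 4 genes. Its level lay between 8.50 and 9.90 before treatment with a median of 9.20, and between 8.33 and 9.91 after it with a median of 9.10. Of the 21 arrays after treatment 16 lay inside the range before, 4 below it and 1 above it. It was lower in 15 of 21 tumours, by a mean of -0.11 ± 0.06 (SE, n = 21), or 0.924-fold with a 95% interval from 0.844 to 1.01. That did not pass (limma p = 0.0816, adjusted p = 0.337; sign-flip permutation test, two-sided p = 0.0885). The 3 other SRSF5 probe sets also had means below 0, at -0.11, -0.10 and -0.01. The last of them had a mean level of 3.23, below every array median, and was higher in 12 tumours. The fall was deepest in tumour 3, from 9.90 to 9.07, and tumour 14 changed by -0.64. The change of the leading probe set had r of -0.29 with the probe set at 3.23 and of 0.51 with each of the other 2. Of these 3 relations 2 passed by Pearson's r and 0 by Spearman's rho (permutation test, adjusted over 10 relations). Without tumours 3 and 14 these r ran from 0.16 to 0.45.

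**Figure D2:**
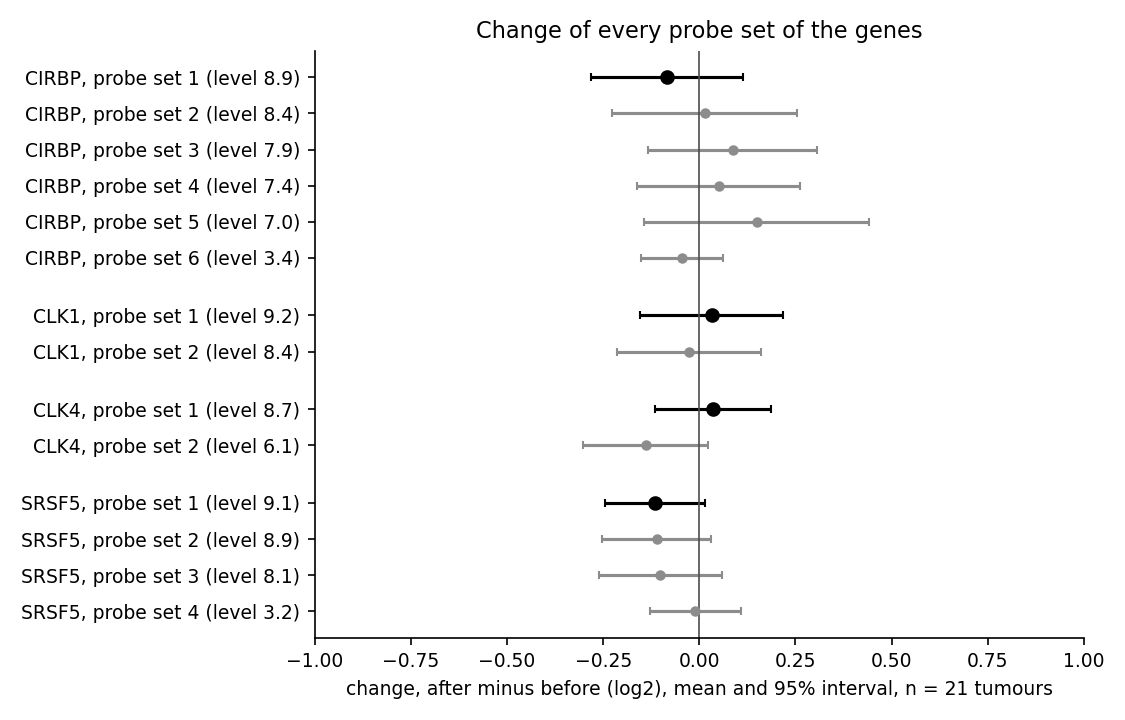
Mean change (after minus before, log2) of all 14 probe sets of the 4 genes with 95% intervals from limma, n = 21 tumours. The leading probe set of each gene is black, the number in brackets is its mean level over all arrays, and all 14 intervals include 0.

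The same held within each batch. In the spiked batch limma called 3.01% of probe sets, and in the unspiked batch 0%, where 4989 had an unadjusted limma p under 0.05. The changes in the spiked batch (n = 9) were -0.02 for CIRBP, 0.03 for CLK1, 0.04 for CLK4 and -0.04 for SRSF5. In the unspiked batch (n = 12) they were -0.13, 0.03, 0.04 and -0.17 in the same order, and no adjusted p was under 0.549 in either batch. The difference between batches passed for none of the 4 genes, with limma adjusted p from 0.884 to 0.998, against 0.00233% of probe sets at which it passed.

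The second question was how far the tumours differed from each other in these changes. The SD of the change over tumours was 0.469 for CIRBP, 0.439 for CLK1, 0.348 for CLK4 and 0.294 for SRSF5. Among 9178 genes at or above the median level, where the median SD was 0.298, CIRBP stood at percentile 83.2 and CLK1 at 79.9. CLK4 stood at percentile 64.1 and SRSF5 at 48.9. The CIRBP probe sets of rank 2 to 5 spread more widely, with SDs of 0.578, 0.526, 0.503 and 0.707. The wide spread of the leading CIRBP probe set rested on 2 tumours, and no tumours were left out in this way for the other CIRBP probe sets. Without the 2 tumours farthest from its own median change, which were 6 and 13, its SD was 0.236 (n = 19). With the 2 farthest tumours of each gene left out in the same way, the median SD over the 9178 genes was 0.232. That was a choice made after seeing the data. By its leading probe set alone, CIRBP then stood at percentile 51.6. CLK1 stayed at percentile 80.3 (SD 0.338), CLK4 stood at 73.3 (SD 0.303) and SRSF5 at 44.4 (SD 0.220). Tumour 6 was the only tumour in which all 4 genes were higher, by 0.44 to 1.16. In tumours 1, 4 and 20 all 4 were lower, and in the other 17 tumours the signs were mixed.

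The changes of CLK1 and CLK4 went together. Over the 21 tumours Pearson's r was 0.782 (permutation p = 4e-05, adjusted p = 0.00072 over 18 relations) and Spearman's rho was 0.686 (permutation test, adjusted p = 0.0169). Both genes moved the same way in 17 of 21 tumours. Tumours 6 and 19 had the highest changes in both genes, and tumours 9 and 20 the lowest in both. Without tumours 6 and 19, the farthest from the median CLK1 change, r was 0.645 (permutation p = 0.00293). Within the spiked batch r was 0.777 (exact permutation test, p = 0.014, n = 9), and within the unspiked batch it was 0.792 (permutation p = 0.00299, n = 12).

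**Figure D3:**
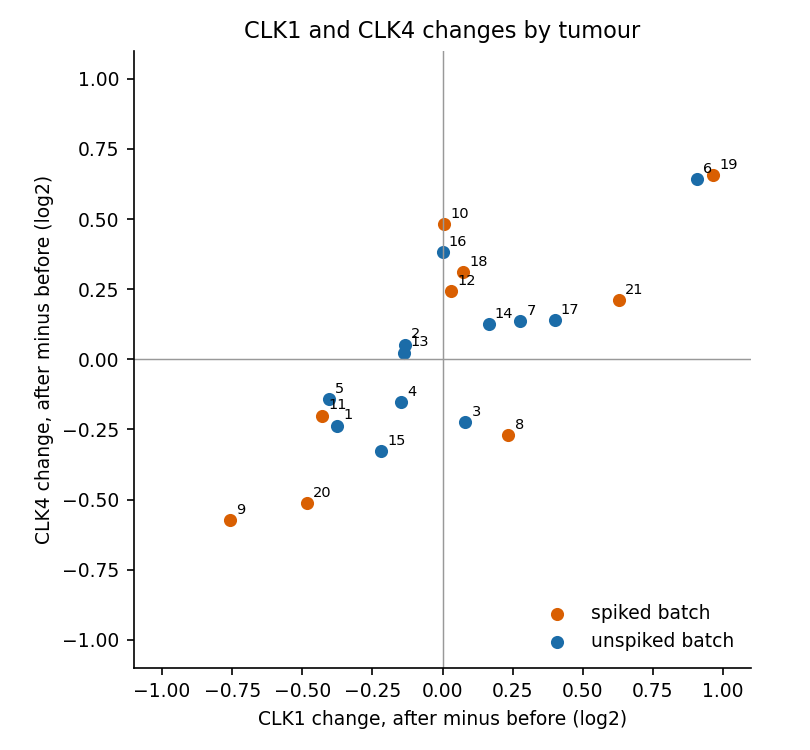
Change of CLK4 against change of CLK1 (after minus before, log2), 1 point per tumour with its number, coloured by batch (poly-A control level). The points rise together from tumour 9 at the lower left to tumours 6 and 19 at the upper right, r = 0.782.

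The relation depended on the probe sets. Both leading probe sets and the second CLK1 probe set have names ending in _s_at. Such probe sets can bind transcripts of related genes, and the part of such binding was not tested. The second CLK1 probe set followed the first closely (r = 0.884, permutation test, adjusted p = 1e-04 over 10 relations, from the smallest p these permutations can give). With it the relation to the leading CLK4 probe set was r = 0.655 (permutation test, adjusted p = 0.00381 over 3 relations). Spearman's rho for that pair was 0.471 (permutation test, adjusted p = 0.097), and without tumours 6 and 19 r was 0.450 (permutation p = 0.0547), neither of which passed. The second CLK4 probe set, whose name ends in _at, gave r = 0.437 with the leading CLK1 probe set (adjusted p = 0.072) and 0.288 with the second (adjusted p = 0.206), and neither passed in the permutation test. Before treatment the levels of CLK1 and CLK4 had r = 0.286 (permutation test, adjusted p = 0.26 over 6 relations), which did not pass, and none of the 6 pairs of genes passed at that time.

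No other relation passed. The pairs of CIRBP with CLK1 (r = 0.412), CLK4 (r = 0.293) and SRSF5 (r = 0.428) had permutation adjusted p of 0.391, 0.461 and 0.391. Without tumours 6 and 13 these fell to 0.219, 0.131 and 0.321. SRSF5 had r = 0.01 with CLK1 and 0.13 with CLK4. The changes of the 4 genes were also set against the mean change of 20 heat shock genes, with r from -0.37 for CIRBP to 0.21 for CLK4. Against 16 proliferation genes r ran from -0.34 to -0.02, and against the 3′ to 5′ contrast from -0.11 to 0.31. The lowest adjusted p of these 12 relations was 0.421 by Pearson's r and 0.377 by Spearman's rho (permutation test).

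The genes whose change was most like that of each member are given as a description, over 21 tumours and 9177 other genes at or above the median level. For CLK1 they were CLK4 itself (r = 0.782), ABCA1, a cholesterol transporter (r = 0.670), and EFCAB7 (r = 0.632). For CLK4 they were FAM102B (r = 0.791), CLK1 (r = 0.782) and the transcription factor gene KLF11 (r = 0.755). For SRSF5 they were PAN3, a subunit of a poly(A) nuclease (r = 0.765), RC3H2, an RNA-binding ubiquitin ligase (r = 0.755), and ZBTB44 (r = 0.755). For CIRBP they were TRIM45 (r = 0.903), ABCA6 (r = 0.869) and SCAND1 (r = 0.807), which without tumours 6 and 13 had r of 0.705, 0.662 and 0.528. The other 3 genes ranked from 672 to 1468 in likeness to CIRBP.

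Other genes of the splicing machinery were taken from fixed lists. For every list count below, the shares over all 15115 genes were 4.02% called higher and 3.13% lower. Of 14 measured SR proteins and their relatives 0 rose and 2 fell, with a median change of -0.03 against 0.01 over all genes. SRSF1, the founding SR protein, fell from 9.76 to 9.42 on average (-0.33 ± 0.08, SE, n = 21, limma adjusted p = 0.0124), with 16 tumours lower. SRSF10, a splicing regulator linked to heat shock, fell from 8.46 to 8.19 (-0.27 ± 0.06, limma adjusted p = 0.0133), with 18 tumours lower. All 3 probe sets of SRSF1 and all 8 of SRSF10 had changes below 0. Among spiked tumours SRSF1 changed by -0.45 and SRSF10 by -0.43, and among unspiked tumours by -0.24 and -0.15. As for the other genes named here, neither was called in the unspiked batch alone. In bulk tissue fewer cells of a type and less RNA per cell cannot be told apart, and 14 of 16 measured proliferation genes fell in the same tumours. TOP2A, which untangles DNA in dividing cells, and RRM2, which helps make deoxynucleotides, both changed by -1.67. T cell markers fell for 4 of 9 genes (2 without tumour 1, 20 or 21), and their mean level ranged from 4.67 to 6.60 before and from 4.48 to 5.59 after treatment. Neutrophil markers rose for 3 of 6 genes (1 without tumour 2, 3, 10, 12, 16 or 21), with ranges of 4.79 to 9.40 and 4.94 to 8.39. Of 9 macrophage markers 2 rose and 1 fell, and their mean level ranged from 6.67 to 9.24 before and from 7.05 to 9.07 after treatment. Leaving out 1 tumour gave 2 to 4 higher, with 4 without tumour 10 or 15, and 0 to 3 lower, with the count of 1 moved in 15 of 21 such fits. The scavenger receptor gene MARCO, named after its values were seen, rose by 1.86 ± 0.30 (SE, n = 21, limma adjusted p = 0.00117), with 19 tumours higher. The other call above 0 was MSR1 (0.52, limma adjusted p = 0.0151). The call below 0 was CSF1R (-0.49, limma adjusted p = 0.0466). C1QA and C1QB changed by -0.43 and -0.53, and CD163 and CD14 by 0.54 and 0.29, and none of these passed. The part of dividing cells, T cells, macrophages and neutrophils in the falls was not tested.

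The kinases around CLK1 and CLK4 gave no call. Of 14 measured genes 0 rose and 0 fell by limma, and 2 had an unadjusted p under 0.05, against 21.7% of all genes. CLK2, another kinase of the family, changed by -0.14 ± 0.05 (SE, n = 21, limma adjusted p = 0.0781), with 16 tumours lower. SRPK3, an SR protein kinase of muscle, changed by 0.16 ± 0.08 (limma adjusted p = 0.256). Among 19 genes with introns held back in the nucleus or controlled by CLK, 1 rose and 0 fell, with a median change of -0.04. Over all genes limma called 4.02% higher and 3.13% lower. TAF1D, a subunit of the RNA polymerase I factor SL1, rose from 8.83 to 9.15 (0.32 ± 0.08, limma adjusted p = 0.023), with 17 tumours higher, and all 4 of its probe sets had changes above 0. It changed by 0.32 in both batches. NKTR (0.24 ± 0.08, limma adjusted p = 0.0706) and LUC7L2 (-0.14 ± 0.04, limma adjusted p = 0.0555) did not pass.

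Among 16 measured hnRNP, RBM and cold shock domain proteins 0 rose and 2 fell, with a median change of -0.01. RBMX, an RNA-binding protein built like CIRBP with 1 RNA recognition motif and a glycine-rich tail, fell from 9.30 to 9.08 (-0.22 ± 0.04, SE, n = 21, limma adjusted p = 0.00466). HNRNPA2B1, an abundant hnRNP of splicing and RNA transport, fell from 11.2 to 10.98 (-0.23 ± 0.05, limma adjusted p = 0.0131). Each was lower in 19 of 21 tumours. Among spiked tumours RBMX changed by -0.26 and HNRNPA2B1 by -0.31, and among unspiked tumours by -0.19 and -0.17. The proliferation genes fell in these samples too, and their part was not tested.

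**Figure D4:**
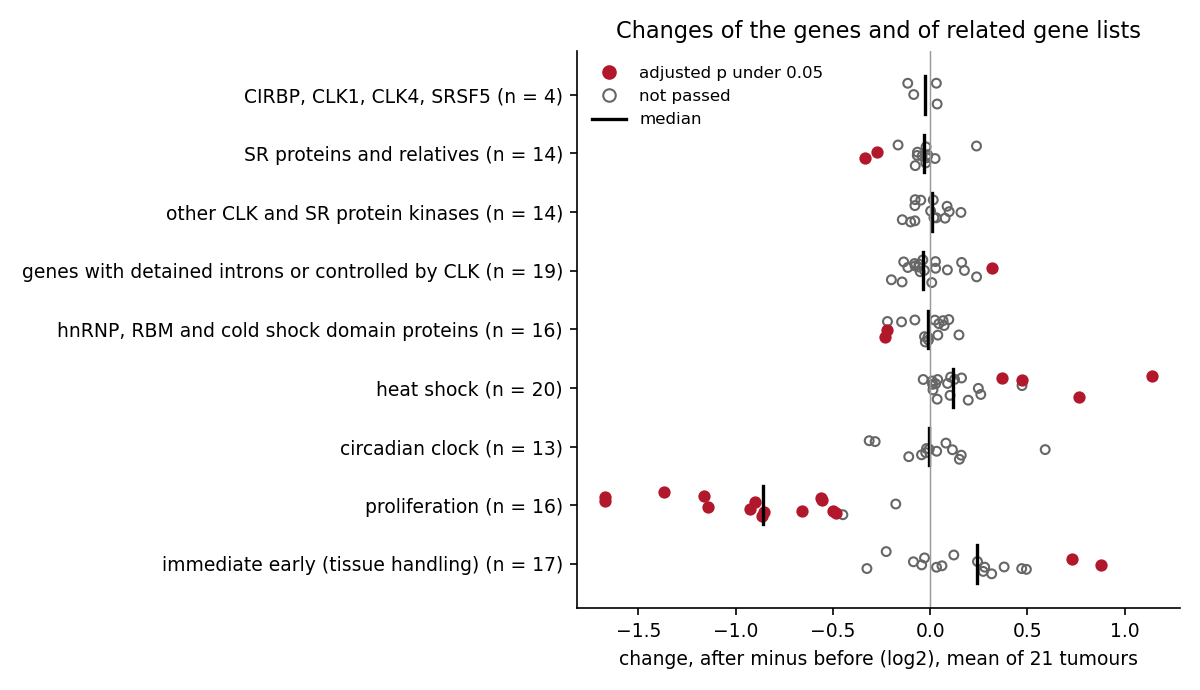
Mean change over 21 tumours (after minus before, log2) of the 4 genes and of each gene in the related lists, 1 circle per gene, filled where limma's adjusted p was under 0.05, with the median of each list as a bar. The 4 genes lie close to 0, as do the medians of the splicing lists, whose filled circles are SRSF1, SRSF10, HNRNPA2B1 and RBMX below 0 and TAF1D above it, while 14 of 16 proliferation genes lie below 0 and are filled.

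Chaperones and other genes of the heat shock response were set beside these genes. Of 20 measured, 4 rose and 0 fell, with a median change of 0.12, and in either batch alone 0 rose. Leaving out 1 tumour gave 1 to 6 higher, with 1 without tumour 16 and 2 without tumour 10, 18 or 20. The 4 included the small heat shock protein CRYAB (1.14 ± 0.22, SE, n = 21, limma adjusted p = 0.00358) and the co-chaperone BAG3 (0.77 ± 0.21, limma adjusted p = 0.0265), whose call was lost in 2 of 21 fits that left out 1 tumour. Of 13 measured circadian clock genes, some of which CIRBP binds as RNA, 0 rose and 0 fell by limma. An unadjusted limma p under 0.05 was seen for 4 of them, against 21.7% of all genes. BHLHE40 changed by 0.59 ± 0.18 (adjusted p = 0.0569), BHLHE41 by -0.31 ± 0.14 (adjusted p = 0.211) and CLOCK by 0.16 ± 0.06 (adjusted p = 0.0921). The hour of sampling is not given in the labels. Of 17 genes listed as immediate early, a list kept for tissue handling, 2 rose and 0 fell. They were FOSL1 (0.73 ± 0.12, limma adjusted p = 0.00139) and ATF3 (0.88 ± 0.22, limma adjusted p = 0.0179). FOS (0.38), EGR1 (0.12) and JUN (-0.04) did not pass (limma adjusted p of 0.558, 0.842 and 0.923). The part of tissue handling was not tested.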

How the data were processed

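Tumour RNA was measured on Affymetrix canine arrays. Per the labels' protocols, tissue was kept in RNAlater, extracted with a Qiagen kit and labelled with biotin. The deposited values are log2 levels made by the authors with RMA and, per the submitters' processing notes, Affymetrix Expression Console. Their versions are not given in the sources used here. Of 43035 rows, 111 controls were left out, leaving 42924 probe sets, of which 29254 have 1 gene symbol in the platform annotation, 439 several and 13231 none here. A probe set with more than 1 symbol was not named. A current gene table matched 27680 of the 29254 by gene identifier and changed no symbol.

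Changes were tested by limma (version 3.58.1, R 4.3.3) with a tumour block, eBayes and Benjamini-Hochberg adjustment over all 42924 probe sets, two-sided, at 0.05, and the fit was tested on simulated data. After removal of group means, all 21 pairs of arrays were each other's best match (lowest r = 0.438). Batches were split at the widest gap in the median of 36 poly-A control probe sets, at 5.26. Relations used 100000 permutations, or all permutations below 10 tumours, two-sided. Of 25 relations planned, 18 could be computed, since RBM3 has no probe set of its own. The genes, lists and rules were chosen with earlier results of these data known. Named genes are the members, from each related list the 2 genes of smallest p and the 2 of largest change, the 3 genes most like each member in change, and 4 tissue checks. Outside that rule, macrophage markers and some immediate early genes were named after their values were seen. Alternatives were other block, filter, shrinkage, weight and normalisation settings, batches, probe sets and tumours left out. Other steps ran in Python 3.11.15 (pandas 2.3.3, SciPy 1.17.1, NumPy 2.4.6), and figures in Matplotlib 3.10.9.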

Additional observations from a re-analysis of the deposited data

How the results depend on the processing

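No alternative brought any of the 4 genes past the threshold, in 39 alternatives for CIRBP, 35 for CLK1, 35 for CLK4 and 37 for SRSF5. Leaving out 1 tumour moved the changes between -0.146 and -0.0162 for CIRBP, -0.0142 and 0.0718 for CLK1, 0.00539 and 0.067 for CLK4, and -0.142 and -0.0792 for SRSF5. The signs turned with other probe sets: CIRBP changed by 0.0137, 0.0873, 0.0501 and 0.149, and by 0.0285 as the mean of all, CLK1 by -0.0257, and CLK4 by -0.139, and by -0.0514 as the mean of both. The replicate numbers pair the 2 arrays of 1 tumour. Without the replicate block limma called 30 probe sets against 2558, and the changes were the same with no gene passing (CIRBP -0.084). A random block gave 1791.

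The counts of the related lists were less stable, and the causes were not tested. Some settings held fewer tumours or probe sets. Without the block the lower counts of SR proteins, hnRNP and proliferation genes and the higher counts of genes with detained introns and of heat shock genes were 0, and that of immediate early genes was 1. In the unspiked batch alone these 6 counts were 0, and in the spiked batch alone the higher counts of detained introns and heat shock were 0. Among probe sets at or above the median level, detained introns gave 2 higher and 2 lower, proliferation 8 lower, clock genes 1 higher and immediate early genes 1 lower. After renewed quantile normalisation detained introns gave 1 lower. With 1 tumour left out, a setting added after seeing the data, the SR protein count stayed at 2 lower, hnRNP gave 2 to 3 lower and proliferation 13 to 15 lower. Detained introns gave 1 to 2 higher (2 without tumour 9) and 0 to 1 lower (1 without tumour 1, 6, 13, 15 or 16), heat shock 1 to 6 higher, clock genes 0 to 1 higher (1 without tumour 5, 6, 8, 12 or 15), and immediate early genes 2 to 4 higher (4 without tumour 13) and 0 to 1 lower (1 without tumour 6, 13 or 19).

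For CLK1 with CLK4 the alternatives gave r of 0.437 and 0.288 with the second CLK4 probe set, chosen after seeing the data, and passed in the others, unadjusted within batches and without the 2 farthest tumours, though the second CLK1 probe set with the leading CLK4 probe set passed by r and not by rho. Relations that did not pass turned in sign as follows. Without the 2 farthest tumours r was -0.326 for CLK1 with SRSF5, 0.274, 0.18 and 0.064 for CIRBP, CLK1 and CLK4 with proliferation, 0.112 for CLK1 with heat shock and -0.0195 for CLK4 with the contrast. In the spiked batch it was -0.00973 for CIRBP with CLK4, -0.317 and -0.373 for CLK1 and CLK4 with SRSF5, 0.405, 0.119 and 0.325 for CIRBP, CLK1 and CLK4 with proliferation, 0.191 for CLK1 with heat shock, and -0.616 and -0.0663 for CIRBP and SRSF5 with the contrast. In the unspiked batch it was -0.21 for CLK4 with heat shock. Spearman's rho was -0.0364 for CLK1 with SRSF5, and 0.0844 and 0.0532 for CLK1 and CLK4 with proliferation.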

Other observations

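The 2 probe sets annotated with both RBM3 and WDR13 cannot be assigned to either gene, and their values belong in no comparison above. The probe set with a mean level of 7.76 changed by -0.27 ± 0.10 (SE, n = 21, limma adjusted p = 0.113), with 13 tumours lower, by -0.55 in the spiked batch (n = 9) and -0.06 in the unspiked batch (n = 12). The difference between batches did not pass (limma adjusted p = 0.651). The probe set with a mean level of 10.3 changed by 0.02 ± 0.09 (SE, n = 21, limma adjusted p = 0.938), with 11 tumours higher.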
